A study of Rattus norvegicus with 14 samples.

Results

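Cells carry water-insoluble fatty acids, bile acids and vitamin A through the cytoplasm and the blood on small binding proteins, and 12 genes of these proteins were followed here in perfused rat small intestine. They are every gene whose symbol in the array's annotation is Fabp, Rbp or Crabp with a single digit: 8 fatty acid binding protein genes (Fabp1 to Fabp7 and Fabp9), 3 retinol binding protein genes (Rbp2, Rbp3 and Rbp4) and the retinoic acid binding protein gene Crabp2. Each was measured by 1 probe, so they are 12 of the 4156 genes with a symbol among 4952 probes, and all 12 were in every test. Other genes of these families were not analysed here.

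Small intestine of rats aged 20 days was perfused with a solution labelled HG or HF, and RNA from an HG and an HF sample was put together on 2-colour arrays. The names are read here as high glucose and high fructose, from what is known of the study, since the labels leave them unexplained. The groups were 5 arrays of HF against HG after 4 h (pairs 1 to 5), 4 arrays of HF against HG after 20 min (pairs 1 to 4) and 3 arrays with 1 RNA of 4 h perfusion in both channels (made from 1HG, 3HG and 3HF; same-RNA arrays below). A second array of pair 2 at 4 h (array 6) and an array with labelling primers were kept out of the tests. The labels give the age of some arrays without its unit, and give no strain, sex, intestinal segment or pooling. Whether a pair number stands for 1 animal is not given, so p-values describe how arrays spread, which may be technical. The values are ratios, so they give no level of any gene, the tissue could not be checked against its markers, and in bulk RNA fewer cells of a type cannot be told apart from less RNA per cell.

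As background, Fabp1 encodes the liver type and Fabp2 the intestinal type of fatty acid binding protein, both abundant in the absorptive cells (enterocytes) of the upper intestine, where they carry fatty acids taken up from food. Fabp6 encodes the ileal protein that carries bile acids, and Rbp2 the enterocyte protein that carries newly absorbed retinol to the enzyme that esterifies it. The other genes have their main sites elsewhere: Fabp3 in heart and skeletal muscle, Fabp4 in fat cells, Fabp5 in skin and several other epithelia, Fabp7 in brain glia, Fabp9 in testis, Rbp3 in the retina, and Rbp4, the retinol carrier of blood plasma, chiefly in liver. Crabp2 encodes a protein that hands retinoic acid to its nuclear receptor.

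Of the 12 genes, 9 had an upstream sequence in the RefSeq table of the GRCr8 build (Fabp4, Fabp5 and Fabp9 had none), and the 250 bases before the start of Fabp2 and Rbp4 are shown because these had the lowest mean ratios at 4 h among the 9. Both are written 5′ to 3′ on the strand of the gene, Fabp2 at chr2:213724379-213724628 (plus strand) and Rbp4 at chr1:245313552-245313801 (minus strand). Capitals mark any match, on either strand, to the letters TATAAA (the TATA box), GATAA (bound by GATA factors), AGGTCA (a half-site of nuclear receptors) or CACGTG (an E box).
Fabp2: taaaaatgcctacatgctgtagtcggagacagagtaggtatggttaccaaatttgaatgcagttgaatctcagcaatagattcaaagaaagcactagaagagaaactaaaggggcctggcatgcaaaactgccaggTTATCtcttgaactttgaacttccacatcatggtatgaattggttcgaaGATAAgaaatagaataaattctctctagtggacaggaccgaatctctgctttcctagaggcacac
Rbp4: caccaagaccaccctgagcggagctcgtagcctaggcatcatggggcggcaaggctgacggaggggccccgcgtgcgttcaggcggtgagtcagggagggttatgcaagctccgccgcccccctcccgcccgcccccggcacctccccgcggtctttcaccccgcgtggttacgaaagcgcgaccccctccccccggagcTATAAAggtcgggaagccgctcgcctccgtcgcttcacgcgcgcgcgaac
Fabp2 held GATAA at 2 places, 114 to 110 bases before the start on the opposite strand and 65 to 61 bases before it on the gene's own strand. Rbp4 held TATAAA once, 50 to 45 bases before the start. Of 33469 upstream windows of this length in the table, 12.9% held TATAAA, 23.5% GATAA, 14.1% AGGTCA and 5.59% CACGTG. Of the other members Fabp1, Fabp6, Rbp2 and Crabp2 also held TATAAA, Fabp1 and Rbp2 also held GATAA, Fabp1, Rbp2 and Fabp7 held AGGTCA, and none of the 9 held CACGTG. No matches overlapped each other. The matches describe letters only and say nothing of binding.

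All values below are log ratios after each array was centred on its median. The deposited values were taken as log2, although the labels give neither the base, the centring nor the direction. Ratios above 0 probably stand for more RNA on the HF side. The basis is Slc2a5, the gene of the fructose transporter GLUT5, which is known to be induced by fructose. It had ratios of 1.33 to 1.95 on arrays 1 to 5. At 20 min its ratios were -0.38, -0.01, -0.43 and -0.44, so it gives no such basis for the direction there. Array 6, on which Slc2a5 stood at -1.66, has a title that sets a 5 beside HG and a 3 beside HF. These may stand for the 2 dyes, but the labels do not settle this. Array 6 is therefore no basis for the direction. The same-RNA array 1HG stood apart from the other arrays tested, with an SD over probes of 1.39 and 228 probes beyond 2 in size, against an SD of 0.30 to 0.40 and 1 to 25 such probes on the other 11. Array 6, which was not tested, stood apart as well, with an SD of 0.82 and 229 probes beyond 2. On 1HG, 30.7% of the 750 lowest probe numbers and 21% of the 452 highest lay beyond 1 in size. Of the 3750 between, 0.8% did. Fabp3, Fabp4, Fabp7 and Fabp9 are among the first 750, so their comparisons with same-RNA arrays are given with and without 1HG.

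**Figure D1:**
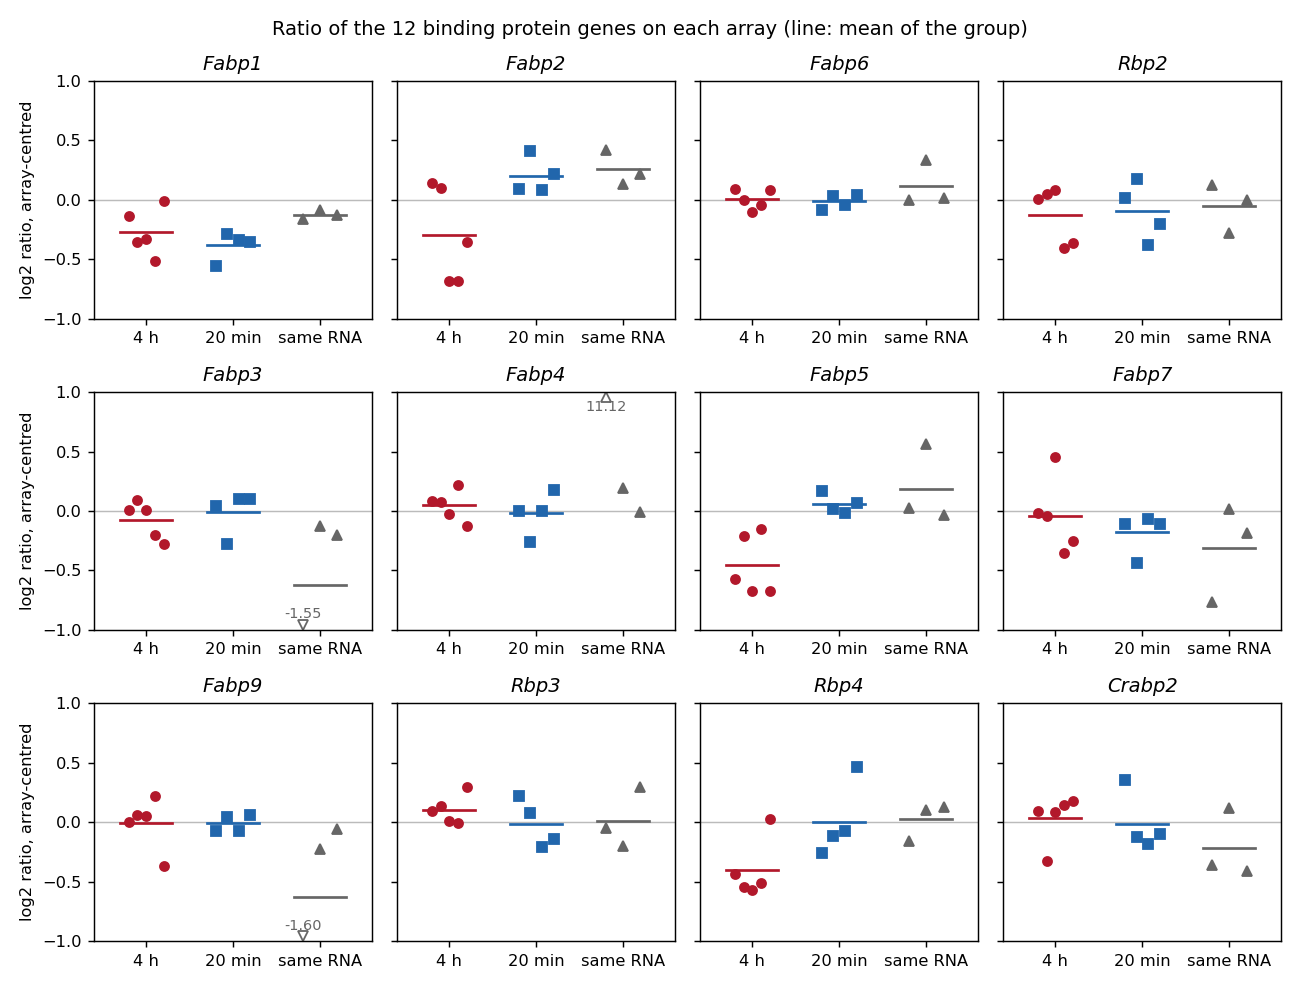
Array-centred log2 ratio of each of the 12 genes on every array (y axis), by group: 5 arrays at 4 h (red circles), 4 at 20 min (blue squares) and 3 same-RNA arrays (grey triangles), with lines at the group means. Fabp5 lay below 0 on all 5 arrays at 4 h and Rbp4 on 4 of 5, and open markers with a value show 1HG readings outside the axis (Fabp3, Fabp4 and Fabp9); the Fabp4 same-RNA mean, 3.77, is also outside it.

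The first comparison set the HF to HG ratio after 4 h against the same-RNA arrays. At 4 h the lowest ratios of the family were those of Fabp5, Rbp4 and Fabp2, at means of -0.46, -0.41 and -0.30, all on the HG side. None of the 12 genes passed at an adjusted p below 0.05 (limma, adjusted over all 4682 features), and 0.0641% of all features did. At an unadjusted p below 0.05 there were 4 members (Fabp2, Fabp5, Rbp4 and Fabp9), against 9.97% of all features, and 1 member (Fabp5) had arrays that did not overlap between the groups, against 6.71%. The differences lay below 0 for 7 members and above 0 for 5, with a median of -0.09, against 51.5% below 0 and a median of -0.01 over all features.

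Of the enterocyte genes, Fabp2 had ratios of 0.14, 0.10, -0.68, -0.68 and -0.36 on arrays 1 to 5 at 4 h. On the same-RNA arrays 1HG, 3HG and 3HF it had 0.42, 0.14 and 0.22. Pairs 3, 4 and 5 lay below every same-RNA array, and pairs 1 and 2 lay near the lowest of them, which pair 1 overlapped narrowly. The means were -0.30 ± 0.40 at 4 h and 0.26 ± 0.15 on the same-RNA arrays (SD, n = 5 and 3). The difference was -0.56 ± 0.20 (SE; 95% interval -0.99 to -0.12; limma adjusted p = 0.394), or 1.47-fold if the base is 2.

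Fabp1 lay below 0 on all 12 arrays tested, the same-RNA arrays included. Its ratios at 4 h were -0.14, -0.36, -0.33, -0.52 and -0.01, against -0.16, -0.09 and -0.13 on 1HG, 3HG and 3HF. The 4 h arrays lay on both sides of the same-RNA arrays, with a difference of -0.14 ± 0.12 (SE; 95% interval -0.40 to 0.12; limma adjusted p = 0.679).

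Fabp6, the bile acid carrier, was within 0.10 of 0 on every array at 4 h, between -0.10 and 0.09, and had 0.00, 0.33 and 0.01 on 1HG, 3HG and 3HF. Rbp2, the retinol carrier, had 0.01, 0.05, 0.08, -0.41 and -0.37 at 4 h, with pairs 4 and 5 apart from the other three, and 0.12, -0.28 and 0.00 on the same-RNA arrays. The differences were -0.11 for Fabp6 (95% interval -0.33 to 0.11) and -0.07 for Rbp2 (-0.43 to 0.28), with adjusted p of 0.709 and 0.898 in limma. That of Fabp6 was -0.0012 without the same-RNA array 3HG.

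Among the genes known mainly from other tissues, Fabp5 had ratios of -0.57, -0.21, -0.67, -0.16 and -0.67 at 4 h. On the same-RNA arrays it had 0.02, 0.57 and -0.03. Every 4 h array thus lay below every same-RNA array, the one such case among the 12 genes. The difference of -0.64 ± 0.17 (SE; 95% interval -1.003 to -0.28; 1.56-fold) had an adjusted p of 0.237 in limma, the lowest of the 12, and ranked 44 by p among all features. It was -0.45 without the same-RNA array 3HG, which carried the highest value.

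Rbp4, the plasma retinol carrier, had ratios of -0.44, -0.55, -0.57 and -0.51 in pairs 1 to 4 and 0.03 in pair 5. On 1HG, 3HG and 3HF it had -0.16, 0.10 and 0.13. Pairs 1 to 4 lay below all same-RNA arrays and pair 5 lay among them. The difference was -0.43 ± 0.18 (SE; 95% interval -0.82 to -0.04; limma adjusted p = 0.46).

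The comparisons of Fabp3, Fabp4 and Fabp9 rested on 1HG, where their ratios were -1.55, 11.1 and -1.60. On the other same-RNA arrays, 3HG and 3HF, Fabp4 had 0.20 and -0.01, and its 4 h ratios lay between -0.12 and 0.22. The differences with 1HG were 0.55 for Fabp3, -3.72 for Fabp4 and 0.62 for Fabp9, and without it 0.09, -0.05 and 0.13. Fabp7, the glial gene, had -0.77 on 1HG and 0.02 and -0.18 on 3HG and 3HF, against -0.36 to 0.45 at 4 h, and its difference of 0.27 was 0.04 without 1HG. Fabp4, Fabp9 and Fabp5 lie close together in the rat gene table, with 0 genes listed between Fabp4 and Fabp9 and 5 between Fabp9 and Fabp5. Of these only Fabp5 had 4 h arrays that were all below 0. Rbp3 and Crabp2 had differences of 0.09 and 0.25, with adjusted p of 0.844 and 0.586. That of Crabp2 was 0.42 without the same-RNA array 3HG and 0.15 without 3HF.

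**Figure D2:**
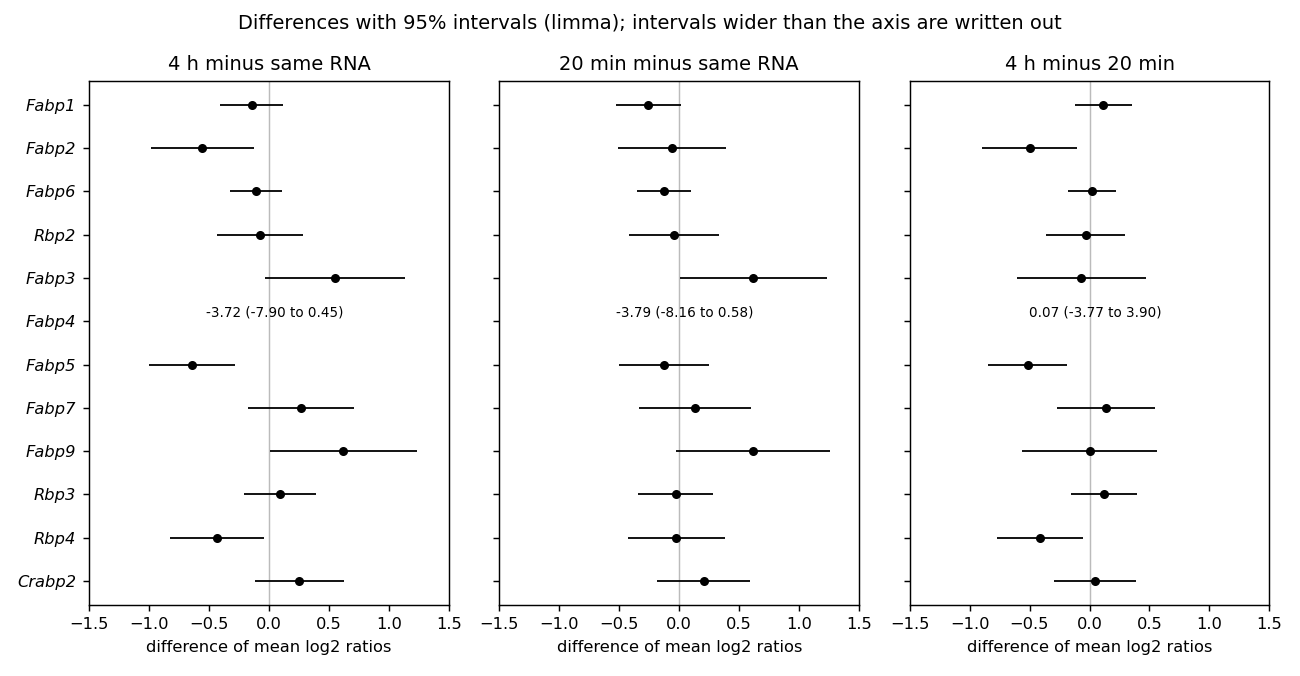
Difference of mean log2 ratios (x axis) for each gene in the 3 comparisons, with 95% intervals from limma. At 4 h minus same RNA the intervals of Fabp2, Fabp5 and Rbp4 lie below 0 and that of Fabp9 just above it, and the intervals of Fabp4, written out, are far wider than the others.

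Set against 0 in place of the same-RNA arrays, the ratios at 4 h of Fabp5 (-0.46; limma adjusted p = 0.00881), Rbp4 (-0.41; 0.0242) and Fabp1 (-0.27; 0.0251) passed, 3 of 12 members, and so did 16.3% of all features. A test against 0 does not take out what a probe shows with 1 RNA in both channels, and Fabp1 averaged -0.13 ± 0.04 (SD, n = 3) there.

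The second comparison asked the same of the ratio after 20 min. No member passed (limma, lowest adjusted p = 0.801), and 0.0427% of all features did. At an unadjusted p below 0.05 there was 1 member, Fabp3, against 5.21% of all features, and 1 member, Fabp1, had arrays that did not overlap between the groups, against 7.01%. Fabp1 had -0.56, -0.28, -0.34 and -0.35 in pairs 1 to 4 at 20 min, all below its same-RNA ratios of -0.16, -0.09 and -0.13. Its difference was -0.26 ± 0.12 (SE; 95% interval -0.53 to 0.01; limma adjusted p = 0.801), and against 0 its mean of -0.38 passed (limma adjusted p = 0.0126), as did 8.2% of all features.

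The 3 genes with the lowest ratios at 4 h had no such ratios at 20 min. Fabp2 had 0.09, 0.41, 0.09 and 0.21, all above 0 and close to its same-RNA values, with a difference of -0.06 (95% interval -0.51 to 0.39). Fabp5 had 0.17, 0.02, -0.02 and 0.07, with a difference of -0.13 (-0.50 to 0.25) that was 0.06 without the same-RNA array 3HG. Rbp4 had -0.26, -0.12, -0.08 and 0.46, with pair 4 above the rest and a difference of -0.02 (-0.43 to 0.39).

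Fabp3 had 0.04, -0.28, 0.10 and 0.10 at 20 min, and its difference of 0.62 was 0.15 without 1HG. For Fabp4 and Fabp9 the differences were -3.79 and 0.62 with 1HG, and -0.11 and 0.13 without it. Fabp7 was below 0 on all 4 arrays, between -0.44 and -0.07, and its difference of 0.13 became -0.10 without 1HG. The remaining genes, Fabp6, Rbp2, Rbp3 and Crabp2, had differences between -0.13 and 0.20, with adjusted p of 0.907 to 0.992 in limma, and that of Fabp6 (-0.13) was -0.021 without 3HG.

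The third comparison asked whether the ratio differed between 4 h and 20 min, where what a probe shows on all arrays alike cancels. It shares its arrays with the comparisons above and is no separate evidence. No member passed (limma, lowest adjusted p = 0.161), and 0.598% of all features did. At an unadjusted p below 0.05 there were 3 members (Fabp2, Fabp5 and Rbp4), against 13.5% of all features, and 1 member, Fabp5, had arrays that did not overlap between the times, against 6.54%. Of the 12 differences 5 lay below 0 and 7 above, with a median of 0.01, against a median of -0.01 over all features.

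Fabp5 averaged -0.46 ± 0.25 at 4 h and 0.06 ± 0.08 at 20 min (SD, n = 5 and 4), and all 5 arrays at 4 h lay below all 4 at 20 min. The difference was -0.52 ± 0.15 (SE; 95% interval -0.85 to -0.18; limma adjusted p = 0.161). Fabp2 averaged -0.30 ± 0.40 at 4 h and 0.20 ± 0.15 at 20 min, with pairs 3, 4 and 5 of 4 h below all arrays of 20 min and pairs 1 and 2 among them. Its difference was -0.50 ± 0.18 (SE; 95% interval -0.89 to -0.10; limma adjusted p = 0.249).

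Rbp4 averaged -0.41 ± 0.25 at 4 h and 0.00 ± 0.32 at 20 min, with pairs 1 to 4 of 4 h below every array of 20 min and pair 5 among them. Its difference was -0.41 ± 0.16 (SE; 95% interval -0.77 to -0.05; limma adjusted p = 0.297), and -0.26 without pair 4 of 20 min. For Fabp4 the 1HG array widened the error even here, since all groups share 1 estimate of the spread. Its difference of 0.07 had an SE of 1.76, and an SE of 0.12 with only the arrays of both times in the fit. The differences of the other 8 genes lay between -0.07 and 0.14.

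**Figure D3:**
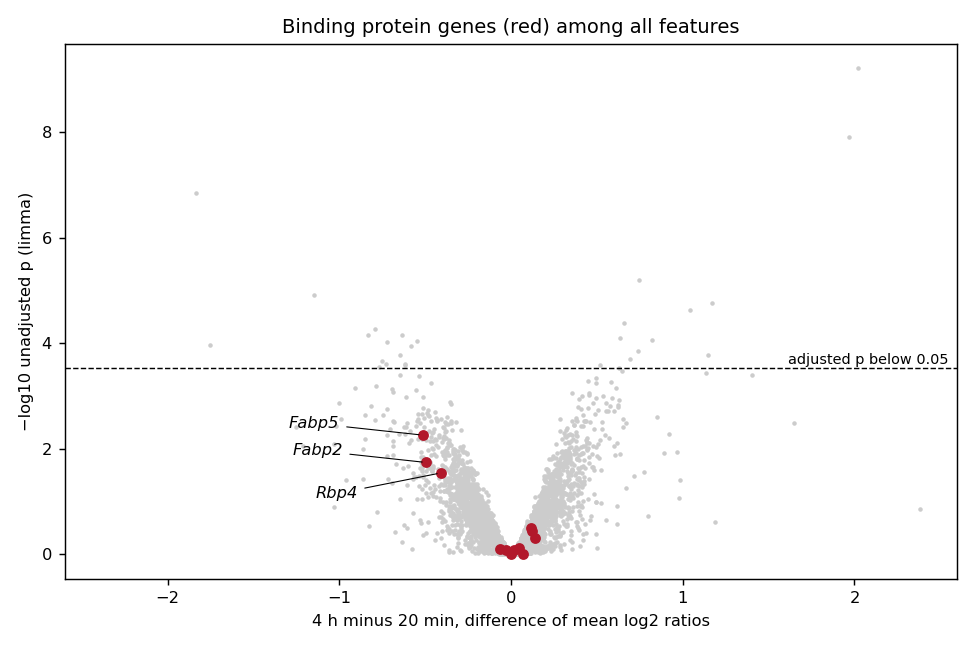
Difference of mean log2 ratios between 4 h and 20 min (x axis) against -log10 of limma's unadjusted p (y axis) for all 4682 features, with the 12 genes in red and the level of an adjusted p of 0.05 dashed. Fabp5, Fabp2 and Rbp4 lie on the negative side below the dashed line, and the other 9 lie near the foot of the plot.

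Likeness to Fabp2 was described by the correlation of the ratios across arrays. Over the 9 arrays of HF against HG, Fabp2 had a Pearson r of 0.56 with Fabp5, 0.44 with Rbp4, 0.39 with Rbp2 and with Fabp6, 0.26 with Fabp3 and 0.06 with Fabp1, and of -0.07 to -0.43 with the others. The 5 genes with the highest r were St14 (0.97), Runx2 (0.96), Igf2 (0.94), Rab10 (0.93) and Cdh17 (0.92). St14 encodes a membrane-bound serine protease of epithelia, Runx2 a transcription factor and Igf2 a growth factor. Rab10 is a vesicle traffic gene and Cdh17 encodes a cadherin of the intestinal epithelium. These r are descriptions over 9 arrays, picked as the highest among all genes with a symbol. A high r gives likeness of pattern across arrays, not of level. Rab10 and Cdh17 lay below 0 on all 9 arrays. Igf2 had a difference of 0.07 at 4 h against same-RNA arrays, where Fabp2 had -0.56. St14 had 0.03, -0.15, -0.41, -0.54 and -0.29 at 4 h, so that, as in Fabp2, pairs 3, 4 and 5 were the lowest.

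Array 6 repeated pair 2 with the same RNAs. Fabp2 had 0.73 on array 6 and 0.10 on array 2. Rbp4 had 0.03 on array 6 and -0.55 on array 2, and Fabp5 had 0.05 and -0.21. With the median of the same-RNA arrays subtracted, Fabp2 stood at 0.51 on array 6 and at a mean of -0.52 on arrays 1 to 5, and Rbp4 at -0.07 on array 6 and -0.51 on arrays 1 to 5. If the dyes of array 6 were exchanged, these readings turn to -0.51 for Fabp2 and 0.07 for Rbp4, so that an opposite sign as deposited would be the same direction. With that median subtracted, 5 of the 12 members (41.7%) and 46.6% of all features on array 6 had the opposite sign to the mean of arrays 1 to 5. With the sign of the subtracted values turned these were 7 of 12 (58.3%) and 53.4%. The labels do not settle which reading holds. Slc2a5, used above for the direction of the ratio, had -1.66 on array 6 and 1.62 on array 2. Averaged with array 2, array 6 moved the 4 h difference of Fabp2 to -0.49 as deposited and to -0.64 with its sign turned. In this averaging the centred ratio itself was turned, without first subtracting the same-RNA median.

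**Figure D4:**
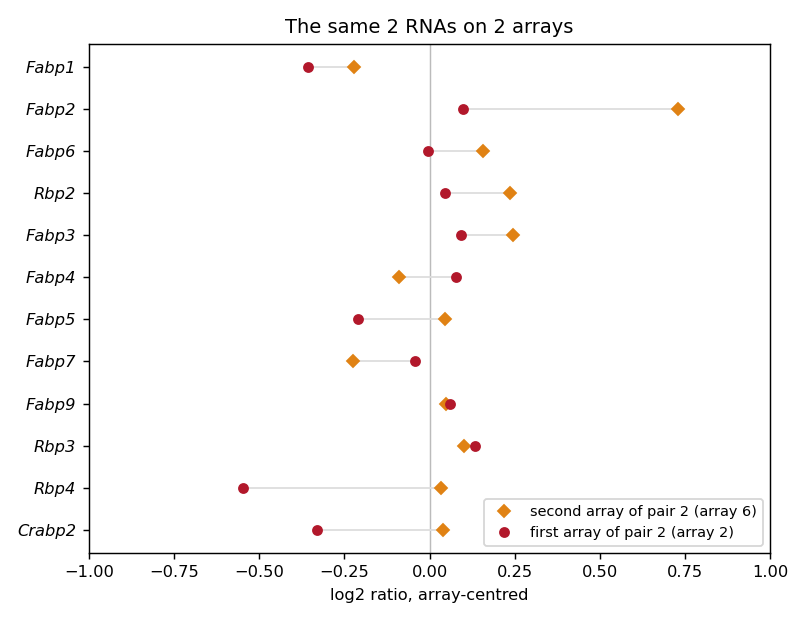
Array-centred log2 ratio (x axis) of the 12 genes on the second array of pair 2 (orange diamonds) and on its first array (red circles), which hold the same 2 RNAs. The widest gaps are those of Fabp2 (0.73 and 0.10) and Rbp4 (0.03 and -0.55).

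The genes around these carriers were described by lists set with earlier results of these data known, and none of their genes passed over all features in any of the 3 comparisons, nor in those with same-RNA arrays when 1HG was left out. Values at 4 h and at 20 min against same-RNA arrays share those 3 arrays. Of 23 measured genes of lipid absorption and lipoproteins, 17 lay below 0 at 4 h against same-RNA arrays, with a median of -0.07, and 16 below 0 at 4 h against 20 min, with a median of -0.14. The smallest p among them belonged to the apolipoprotein genes Apoa1 (-0.59; limma adjusted p = 0.155, against same-RNA arrays) and Apoc3 (-0.91; adjusted p = 0.0801, against 20 min), and Lipa, a lysosomal lipase, had -0.49 and -0.55 (adjusted p = 0.341 and 0.128). Lpl, the lipoprotein lipase gene, lay the other way at 4 h against 20 min, at 0.44 (limma adjusted p = 0.174). At 20 min 7 of the 23 lay below 0, with a median of 0.05, and 11 without 1HG, with a median of 0.02.

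Of 12 measured genes of retinoid metabolism and its receptors, 6 lay below 0 at 4 h against same-RNA arrays, with a median of 0.01. The retinoic acid receptor gene Rarb had 0.59 at 4 h and 0.55 at 20 min against those arrays (limma adjusted p = 0.241 and 0.801), and 0.46 and 0.41 without 1HG. Ttr, which encodes the plasma partner of Rbp4, had -0.17 at 4 h (limma adjusted p = 0.639), and -0.05 without 1HG. The retinol dehydrogenase gene Rdh16 had 0.52 between 4 h and 20 min (adjusted p = 0.174).

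For the 15 measured fatty acid receptors and transcription factors of enterocytes the medians were 0.05 at 4 h and -0.05 at 20 min. The fat cell regulator Pparg had 0.40 and 0.44 (limma adjusted p = 0.358 and 0.801), and Cdx2, an intestinal homeobox gene, -0.33 at 4 h (adjusted p = 0.409). Of 17 measured genes of fatty acid oxidation 13 lay above 0 at 4 h against same-RNA arrays, with a median of 0.13, and the lowest adjusted p was that of the acyl-CoA dehydrogenase gene Acadl (0.36; limma adjusted p = 0.408). In that list Cpt2, a mitochondrial carnitine acyltransferase gene, had -3.72 with 1HG and -0.55 without it, while the median of the list was 0.126 with it and 0.135 without it. The 12 other lipid binding proteins and the 9 genes of bile acid handling had 4 h medians of 0.01 and -0.02. In the bile acid list the export pump gene Abcb11 differed by -0.65 between 4 h and 20 min (adjusted p = 0.0581), beside 0.02 for Fabp6.

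Markers of the cells that could carry these genes gave no call either. At 4 h against same-RNA arrays the medians were 0.04 for 9 enterocyte markers, 0.07 for 6 fat cell markers, -0.10 for 5 endothelial markers (all 5 below 0), -0.05 for 7 immune markers, -0.10 for 6 smooth muscle markers, 0.01 for 10 neuron and glia markers and -0.11 for 8 hepatocyte markers. The 10 markers of exocrine pancreas had a median of -0.29 with 8 below 0, the 10 of enteroendocrine cells -0.18 with 8 below 0, and the goblet (3) and Paneth (6) markers 0.19 and 0.13. Without 1HG the medians were -0.17 for exocrine pancreas, -0.12 for enteroendocrine cells, -0.03 for hepatocytes and -0.08 for goblet cells. For immune markers the median was then 0.003 and for neuron and glia markers -0.03, and 4 of 5 endothelial markers lay below 0. Gcg, the glucagon gene among the enteroendocrine markers, had -5.34 with 1HG and 0.17 without it. Their part in the ratios of Fabp2, Fabp5 and Rbp4 was not tested.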

How the data were processed

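The authors deposited 1 table of log ratios (taken here as log2) for 4952 probes on 14 arrays with 2 channels. How the ratios were made (scanner, background correction, normalization, base, direction) was not given in the labels or the header; array medians lay between -0.07 and 0.02, and signal strength was not analysed, which leaves dim probes in the tests. Gene names came from the platform annotation (4426 probes with 1 symbol, 2 with several, 524 with none); 4371 of the 4426 matched the GRCr8 gene table by Entrez identifier.

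Arrays were centred on their medians and probes of 1 symbol averaged, giving 4682 features. A single limma 3.58.1 fit (R 4.3.3; lmFit, eBayes; 9 residual and 2.84 prior degrees of freedom) of 12 arrays had 3 groups, with Benjamini-Hochberg adjusted p-values over all features. Self-tests on simulated data were run first. Array 6 was left out because the labels do not settle its dyes; averaging it in was an alternative, beside other scalings, fits, controls and left-out arrays. The number of arrays limits precision. The members and lists, and the rule naming all members, the 5 genes most like Fabp2 and up to 4 genes per list, were chosen with earlier results of these data known.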

Additional observations from a re-analysis of the deposited data

Results flagged for a closer look

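In 5 of 24 groups of a member's arrays at 4 h or 20 min, 1 array lay far from the others by a gap test that chance alone meets in about 1 of 20 groups. At 4 h these were Rbp4 in pair 5, at 0.029 with the nearest other array at -0.44, and Crabp2 in pair 2, at -0.33 with the nearest at 0.09. At 20 min Crabp2 in pair 1 stood at 0.35 with the nearest at -0.10, and in pair 2 Fabp3 stood at -0.28 (nearest 0.04) and Fabp7 at -0.44 (nearest -0.11).

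On arrays outside the tests, readings of Fabp2 and Fabp1 lay further from the same-RNA median than any same-RNA array did. How many of all features did so was not counted, and array 6 had a wide spread over probes (SD 0.82). For Fabp3, Fabp4, Fabp7 and Fabp9 the limit was widened by their readings on 1HG. Fabp2 had 0.73 on array 6 and -0.058 on the primer array, against 0.14 to 0.42 on the same-RNA arrays, and Fabp1 had -0.22 on array 6, against -0.16 to -0.09.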

How the results depend on the processing

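No member passed in 54 of 56 refits of a comparison. The exceptions were the tests against 0, with 3 members at 4 h and 1 at 20 min. Of 672 recomputed member differences, 132 repeat the reported difference by construction (robust variance, each probe alone, 2 groups only, and array 6 at 20 min). Of the other 540, 492 kept their sign and 48 changed it, 40 of these among differences within 1 SE of 0. At 4 h against same-RNA arrays, Crabp2, Fabp1, Fabp2, Fabp5 and Rbp4 kept theirs in every alternative run, and Fabp2 did not pass in any. By exact permutation tests (two-sided, unadjusted) the Fabp2 differences of -0.56 and -0.50 had p = 0.0536 and 0.0873, above 0.05, where limma's unadjusted p were 0.0158 and 0.018. By the same exact permutation test Rbp4 had p = 0.0714 and 0.0556, Fabp9 0.107 at 4 h and Fabp3 0.114 at 20 min, also above 0.05 where limma's were below it, while Fabp5 had 0.0357 and 0.0238, and Fabp1 had 0.0286 at 20 min, where limma's was 0.0612.

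Against 0 the signs that changed at 4 h were those of Fabp3 (-0.0746), Fabp4 (0.0465), Fabp6 (0.00614), Fabp7 (-0.0436) and Fabp9 (-0.00824), and at 20 min those of Crabp2 (-0.015), Fabp2 (0.20), Fabp3 (-0.00762), Fabp5 (0.0579), Fabp7 (-0.18), Fabp9 (-0.00964) and Rbp4 (0.00291). The control itself differs there by construction. With array weights Fabp7 (-0.0098) and Rbp2 (0.00993) changed sign at 20 min. Between the times Fabp9 did so with array 6 sign turned (-0.00941) and with arrays scaled to 1 spread (-0.00145). The replicate block changed no call and turned Fabp6 (-0.00023) and Rbp2 (0.0278) between the times. The numbers were not taken as pairs because the labels write them differently at the 2 times. In their deviations, same-numbered arrays of 4 h and 20 min correlated at -0.07 to 0.16 and unlike-numbered ones at -0.165 to 0.116. The cause of these sign changes was not tested.

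With 1 array left out, differences that changed sign ranged, at 4 h, from -0.19 to 0.0146 for Rbp2 and -0.0163 to 0.23 for Rbp3. At 20 min they ranged from -0.13 to 0.0221 for Fabp2, -0.24 to 0.0637 for Fabp5, -0.10 to 0.29 for Fabp7, -0.16 to 0.0513 for Rbp2, -0.14 to 0.11 for Rbp3 and -0.18 to 0.0646 for Rbp4. Between the times the ranges were -0.00845 to 0.17 for Crabp2, -0.012 to 0.13 for Fabp4, -0.0036 to 0.0461 for Fabp6, -0.0548 to 0.0917 for Fabp9 and -0.13 to 0.0608 for Rbp2. Leaving 1HG out of the gene lists and markers was chosen after seeing the data. Signal over background was not analysed here.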

Other observations

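On the array that carried the labelling primers, the 12 genes had ratios between -0.25 (Fabp6) and 0.32 (Rbp4), and its SD over all probes was 0.18.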
